A study of Mus musculus with 9 samples.

Results

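Expression of 40 adipogenesis and lipid storage genes was followed in stromal vascular fractions (SVFs) of mouse inguinal fat after priming. The members are a list of gene symbols (regulators of adipocyte differentiation, adipokines, and genes of fatty acid uptake, lipid droplets, lipolysis and lipid synthesis), matched to array probe sets that the platform annotation names for that gene alone. Of the 40 members, 37 had at least 1 such probe set, 75 probe sets in all, among the 18193 genes named on the array. Cfd, Acsl1 and Plin1 were not analysed here. After a filter on detection 33 members were among the 11796 genes tested, and 30 of these were called present on all 9 arrays.

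SVFs are the stromal, vascular and blood-borne cells left when digested fat is filtered and spun so that the floating adipocytes are lost. RNA came from wild type Balb/c mice aged 10 weeks, with 3 mice, kept apart, for each time point (day 0, 1 or 3 after surgical injury of the inguinal fat). The labels name priming and injury and not ischemia, whereas priming in the study joined mincing of the fat with ligation of its feeding artery, and the groups are therefore called by their day. The study set days 1 and 3 against day 0, which asks how the cells change while the wound heals. Whether the day 0 mice were operated on is not given in the labels. The same 3 day 0 arrays serve both comparisons, and the day 0 mice carry the same strain and genotype as the others.

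RNA was measured on Affymetrix mouse arrays, whose probe sets each join several short probes for a transcript and have a MAS5 signal and a call of whether the transcript was detected (present, marginal or absent). Per array, 24106 to 26299 of the 45101 probe sets were present. RNA integrity, read from 3′ over 5′ actin control signals, was alike on all arrays (ratios of 1.15 to 1.32). Log2 changes are given with limma's standard error (n = 3 mice per day), and a gene was called when its adjusted p, by the Benjamini-Hochberg method over all genes tested, was under 0.05. For other probe sets of a gene, adjusted p comes from a separate limma fit over 21283 probe sets. Signals of different genes come from different probes and are not set against each other.

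In fat, committed progenitors become adipocytes when the C/EBP factors and the nuclear receptor PPAR gamma switch on each other and the genes of lipid storage. The mature cell takes up fatty acids released by lipoprotein lipase, makes others from acetyl-CoA, esterifies them to triacylglycerol and coats the resulting droplet with perilipins. Hormone-driven lipases take the stored lipid apart again, and glycerol and fatty acids leave the cell. Perilipin 2 and several enzymes of lipid handling are made by many cell types, macrophages among them, whereas perilipin 4, Cidec and adiponectin are typical of adipocytes.

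The core promoters of 4 members are shown because these genes took different courses below: Pparg and Thrsp were lower on both days, Fasn was lower on day 1, and Plin2 was higher on both days. Each sequence is RefSeq on GRCm38.p6 and runs 5′ to 3′ on the gene's strand, from 250 bases before to 50 bases after an annotated start. Capitals mark CCAAT, the box read by NF-Y, and TTGCNNAA, a C/EBP motif, on either strand. The windows lie at chr6:115421816-115422115 on the plus strand for Pparg (the last of its 3 annotated starts), and on the minus strand at chr7:97417501-97417800 for Thrsp, chr11:120824498-120824797 for Fasn and chr4:86670010-86670309 for Plin2.
Pparg: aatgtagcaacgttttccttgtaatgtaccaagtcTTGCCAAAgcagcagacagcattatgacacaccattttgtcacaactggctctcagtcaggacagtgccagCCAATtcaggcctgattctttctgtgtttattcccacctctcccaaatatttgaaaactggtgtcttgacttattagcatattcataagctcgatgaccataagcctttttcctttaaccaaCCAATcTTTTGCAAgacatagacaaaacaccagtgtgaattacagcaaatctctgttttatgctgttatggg
Thrsp: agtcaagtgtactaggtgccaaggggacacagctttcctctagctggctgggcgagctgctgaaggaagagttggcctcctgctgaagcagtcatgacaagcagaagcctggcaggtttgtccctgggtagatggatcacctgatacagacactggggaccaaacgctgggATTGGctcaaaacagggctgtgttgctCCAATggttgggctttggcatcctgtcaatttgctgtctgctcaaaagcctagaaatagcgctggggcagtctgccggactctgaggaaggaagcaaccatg
Fasn: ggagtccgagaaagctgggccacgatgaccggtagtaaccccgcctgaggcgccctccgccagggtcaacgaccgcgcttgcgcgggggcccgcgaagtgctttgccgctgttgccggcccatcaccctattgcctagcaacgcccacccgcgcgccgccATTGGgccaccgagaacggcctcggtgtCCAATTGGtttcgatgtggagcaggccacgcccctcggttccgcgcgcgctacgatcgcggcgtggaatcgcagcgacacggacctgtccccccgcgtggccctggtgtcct
Plin2: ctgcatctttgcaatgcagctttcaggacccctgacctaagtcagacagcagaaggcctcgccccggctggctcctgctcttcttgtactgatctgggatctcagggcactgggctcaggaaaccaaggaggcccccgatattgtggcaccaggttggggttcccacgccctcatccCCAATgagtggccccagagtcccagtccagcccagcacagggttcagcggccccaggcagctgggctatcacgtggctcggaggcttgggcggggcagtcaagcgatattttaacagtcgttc

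In this Pparg window CCAAT begins 144 and 22 bases before the start, and the C/EBP motif 215 and 16 bases before it. The window of the first Pparg start held no match, and that of the second held CCAAT alone, at 83 bases. Thrsp holds CCAAT at 79 and 52 bases, and Plin2 at 73 bases. Fasn holds it at 90, 62 and 59 bases before the start, the last 2 overlapping on opposite strands. RefSeq windows were at hand for 25 of the 37 measured members, 35 windows in all. CCAAT was found in 12 of the 35 and in 37.4% of all 32851 mouse windows, and TTGCNNAA in 4 of the 35 and in 10.8% of all. TCACNCCAC (sterol regulatory element) was in 0 of the 35 and 1.24% of all, and TGACGTCA (CREB) in 0 of the 35 and 1.79% of all. These matches describe letters in a window and not bound sites.

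More members were lower than higher after priming. On day 1, 14 of the 33 tested members were lower and 2 higher than on day 0, where 17.9% of all 11796 genes were lower and 10.7% higher. On day 3, 15 were lower and 3 higher, against 12.5% and 13.6% of all genes. The median log2 change of the 33 members was -0.42 on day 1 and -0.37 on day 3, and that of all genes was -0.13 and -0.03. The 10 members called lower on both days were Aqp7, Ebf2, Lipe, Lpl, Mgll, Plin4, Pparg, Scd1, Slc2a4 and Thrsp, whereas Plin2 was the 1 member called higher on both. Of these, Slc2a4 passed the filter on detection only through day 0, the day on which it is high. Another 10 members were called on neither day. Between days 1 and 3, Scd2 and Me1 rose and Cebpd and Cidec fell, which is 2 members each way. Of all genes, 9.66% were called higher and 4.54% lower. The Me1 call was lost when any 1 array was left out. In a mixture of cells, fewer cells of a type and less RNA per cell cannot be told apart.

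**Figure D1:**
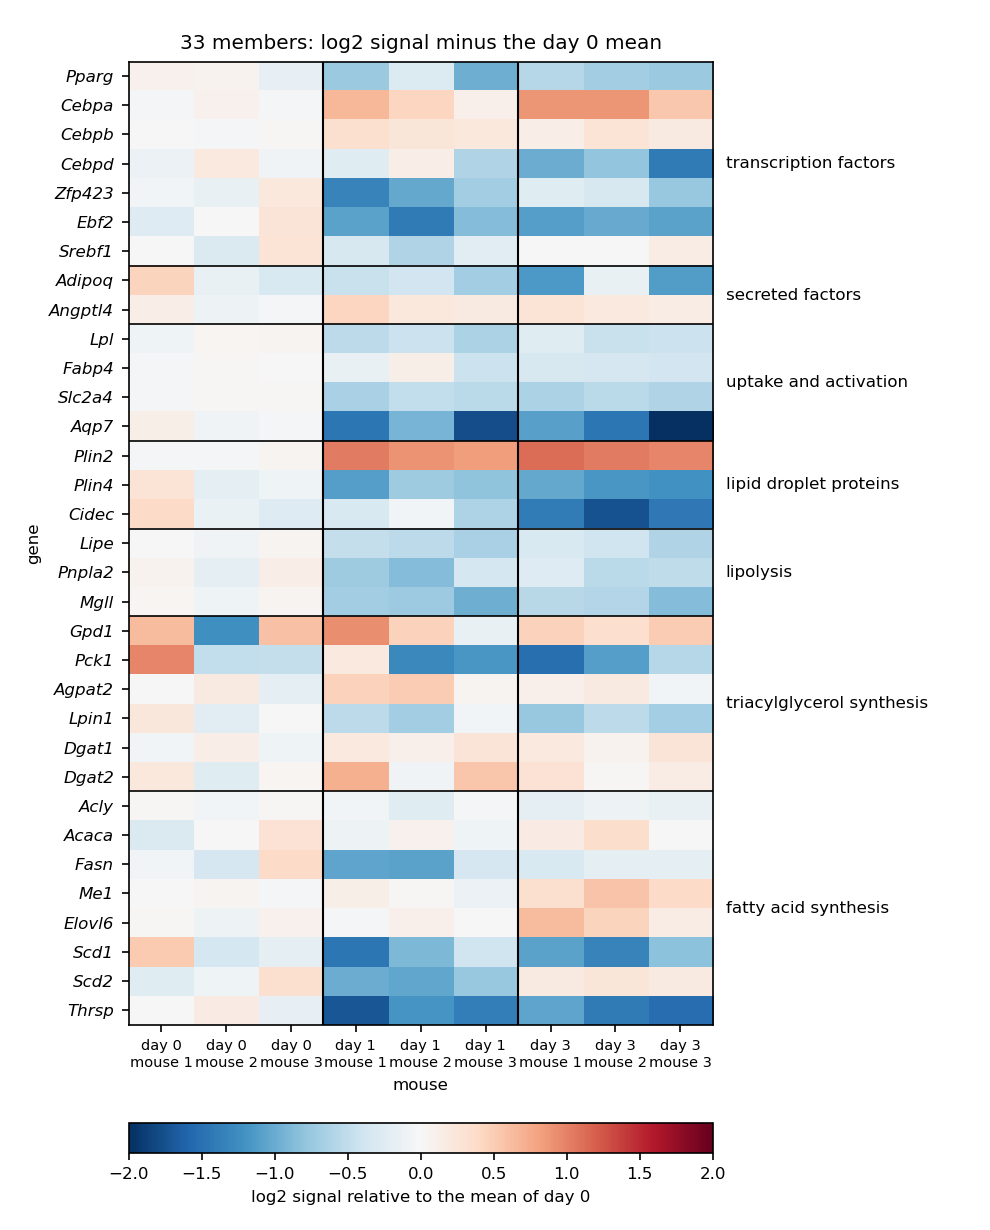
Log2 signal of the 33 tested members in each of the 9 mice, as the difference from the mean of the 3 day 0 mice (color, from -2 to 2), with genes grouped by role. The lipolysis genes and most uptake genes are blue in the day 1 and day 3 mice, and Plin2 is red in all 6 of them.

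Among the transcription factors, Pparg, the master regulator of adipocyte differentiation, fell after priming. Signals of Pparg were 1021, 1008 and 862 in the day 0 mice, 577, 793 and 488 on day 1, and 649.7, 595 and 574 on day 3. Every day 0 mouse lay above every primed mouse. The change was -0.66 ± 0.17 on day 1 (limma adjusted p = 0.015) and -0.67 ± 0.17 on day 3 (0.0143). The day 1 call was lost without day 0 mouse 1 (adjusted p = 0.0506), and the day 3 call without day 3 mouse 2 (0.0502).

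Ebf2, a factor that marks committed and brown preadipocytes, was lower on both days by about the same amount. Its signals were 1801, 2167 and 2573 on day 0, 1023, 809.7 and 1186 on day 1, and 1009, 1068 and 1030.2 on day 3. The groups did not overlap, and the changes were -1.12 ± 0.16 (adjusted p = 0.00062) and -1.06 ± 0.16 (0.000783). Its other 2 probe sets gave changes between -0.95 and -1.29, and all 3 probe sets were called on both days. Zfp423, a zinc finger factor that commits cells to the adipocyte line, read 407, 381 and 492 on day 0, 167, 208 and 261 on day 1, and 361, 341 and 249.7 on day 3. It was lower on day 1 (-1.02 ± 0.20, adjusted p = 0.00406). On day 3 all 3 mice were below the day 0 mice, and the change of -0.44 ± 0.20 did not pass (adjusted p = 0.132). The difference between days 3 and 1 was 0.59 ± 0.20 (adjusted p = 0.0736).

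The C/EBP genes moved in different directions. Cebpa, which with PPAR gamma keeps the adipocyte state, had signals of 411, 451 and 411 on day 0, 674, 569 and 454 on day 1, and 779.7, 781 and 618 on day 3. It rose on day 3 by 0.77 ± 0.16 (adjusted p = 0.00539), a 1.70-fold level, and its day 1 change was 0.40 ± 0.16 (adjusted p = 0.0857). Without day 1 mouse 3, the lowest of its group, the day 1 change was 0.55 and passed (adjusted p = 0.0166). Cebpb and Cebpd act early in adipocyte differentiation and also in the acute phase response of many cells. Cebpb read 14165, 13735 and 14404 on day 0, 17686, 16628 and 16396 on day 1, and 15522, 17017 and 16034 on day 3. All primed mice were above all day 0 mice, and the rise on day 1 was small (0.26 ± 0.08, adjusted p = 0.0295). Leaving out any 1 day 0 mouse or day 1 mouse 1 took the adjusted p to between 0.07 and 0.0971. A second Cebpb probe set rose by 0.50 ± 0.12 on day 1 (adjusted p = 0.0134).

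Cebpd was lower on day 3. Its signals were 8457, 10459 and 8694 on day 0, 7776, 10000.4 and 6043 on day 1, and 4613, 5304 and 3455 on day 3. Days 0 and 1 overlapped, and every day 3 mouse was below all others. The change was -0.24 ± 0.19 on day 1 (adjusted p = 0.363) and -1.06 ± 0.19 on day 3 (0.00212). Between days 1 and 3 it fell by 0.83 ± 0.19 on the log2 scale (limma adjusted p = 0.0159). The call between days 3 and 1 was lost without day 1 mouse 2 (adjusted p = 0.0588) or day 3 mouse 3 (0.058). Srebf1, a driver of lipid synthesis genes, read 1240.1, 1009.8 and 1481 on day 0, 987, 811 and 1059 on day 1, and 1225, 1222 and 1362 on day 3, and was not called. Its day 1 change of -0.38 ± 0.16 (adjusted p = 0.0897) passed without day 0 mouse 2 (0.0313) or day 1 mouse 3 (0.0481). Klf15, a glucocorticoid-induced activator of adipocyte genes, was called absent on all arrays, with signals from 5.71 to 96.9, and was not tested.

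**Figure D2:**
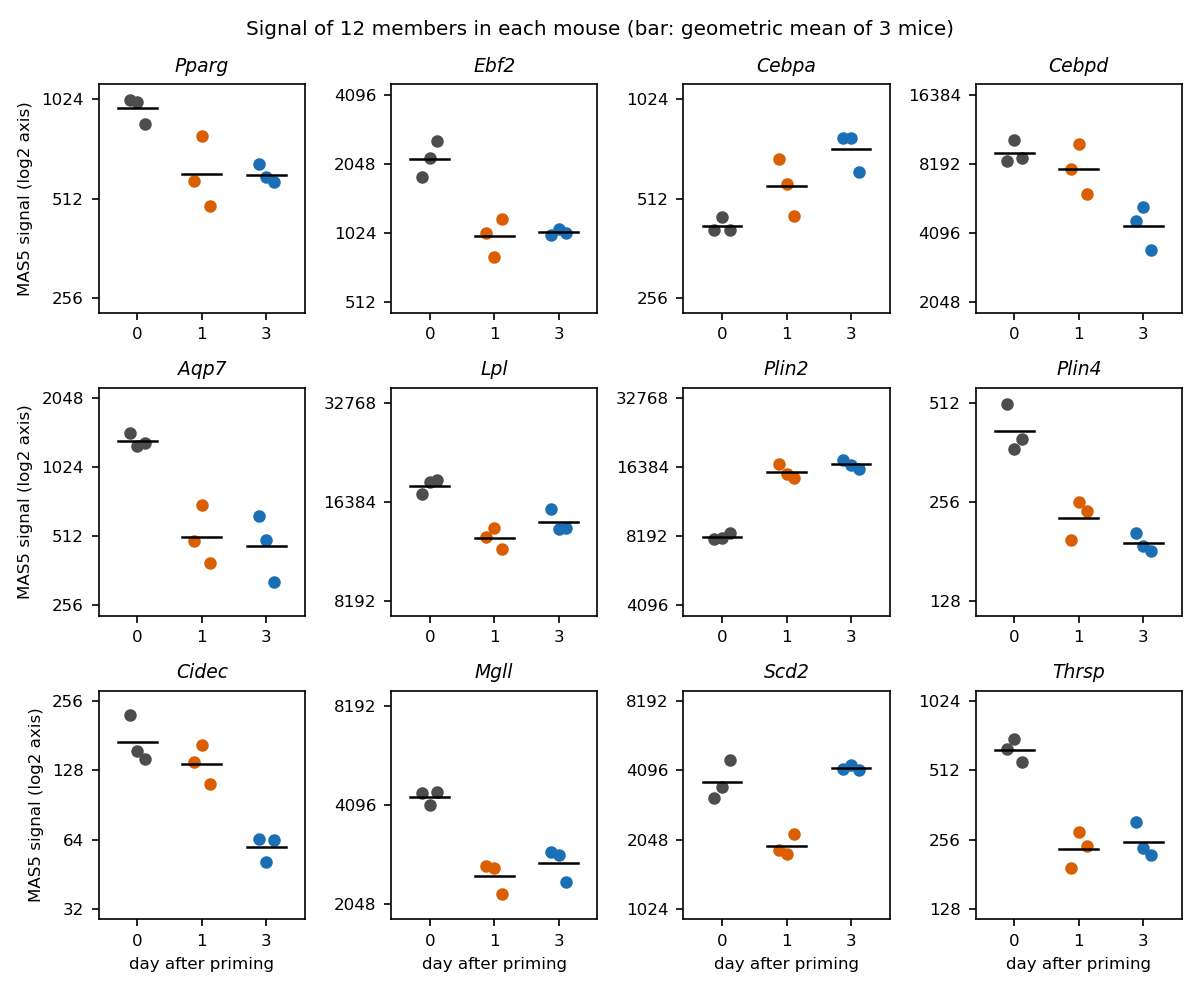
MAS5 signal (log2 axis) of 12 members in each mouse by day after priming, with the geometric mean of 3 mice as a bar. Plin2 lay between 7984 and 8480.4 on day 0 and from 14649.9 to 17658 after priming, and Scd2 was low on day 1 alone, from 1778 to 2174.

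Of the secreted factors, adiponectin (Adipoq) had signals of 693, 463 and 415 on day 0, 374, 390.4 and 315 on day 1, and 229.7, 459.5 and 235 on day 3. Day 3 mouse 2 overlapped the day 0 mice and the other 2 mice of that day were the lowest of all. The day 3 change of -0.81 ± 0.27 passed narrowly (adjusted p = 0.0443), and the day 1 change of -0.51 ± 0.27 did not (0.166). Leaving out day 0 mouse 1 or 2, day 1 mouse 2, or day 3 mouse 1 or 3 took the day 3 value to an adjusted p between 0.0544 and 0.166. Angptl4, an inhibitor of lipoprotein lipase induced by fasting and hypoxia, had a brightest probe set with changes of 0.27 ± 0.10 and 0.21 ± 0.10 (adjusted p = 0.0641 and 0.158). Its other probe set read 1502, 1364 and 1213 on day 0, 1371, 949.7 and 885 on day 1, and 950.3, 919 and 814 on day 3. That probe set was lower on day 3 by -0.60 ± 0.17 (adjusted p = 0.0237), so no direction is given for Angptl4. The brightest probe set passed on day 1 without day 1 mouse 3 (adjusted p = 0.0362).

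Leptin (Lep) and resistin (Retn), adipokines of mature adipocytes, were called absent on all 9 arrays. Lep read from 2.37 to 39.3. Retn read from 241 to 245 on day 0, from 154 to 209 on day 1 and from 128 to 157 on day 3, so day 0 lay above both other days although no array detected it. Neither was tested.

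Of the 4 tested genes of uptake and transport, 3 were lower on both days. Aqp7, the channel through which glycerol leaves adipocytes, had signals of 1446, 1269.7 and 1299 on day 0, 488, 699 and 391 on day 1, and 631, 493 and 325 on day 3. The primed mice were all far below the day 0 mice, with changes of -1.39 ± 0.25 (adjusted p = 0.00217) and -1.52 ± 0.25 (0.00107). Its other probe set changed by -1.30 and -1.43. Lpl, the lipase that frees fatty acids from lipoproteins at the vessel wall, read 17241, 18797 and 19024 on day 0, 12781, 13638 and 11795 on day 1, and 15557, 13520.5 and 13659 on day 3. It was lower on day 1 (-0.53 ± 0.09, adjusted p = 0.00213) and on day 3 (-0.37 ± 0.09, 0.0139). The day 3 call was lost without day 0 mouse 3 (adjusted p = 0.0568), day 3 mouse 2 (0.0653) or day 3 mouse 3 (0.0508). A second Lpl probe set was lower by -0.90 ± 0.11 and -0.50 ± 0.11, and was higher on day 3 than on day 1 (0.41 ± 0.11, adjusted p = 0.0398), a difference that did not pass in the brightest probe set (0.16 ± 0.09, adjusted p = 0.263).

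Slc2a4, the insulin-responsive glucose transporter GLUT4, was called present on all 3 day 0 arrays and absent on all 6 others. Its signals were 234, 244 and 245 on day 0, 154, 171 and 165 on day 1, and 156, 165 and 159 on day 3. The day 0 signal was 1.48-fold that of day 1 (adjusted p = 0.0154) and 1.51-fold that of day 3 (0.0117), with the later signals undetected. The day 1 call was lost without day 0 mouse 3 (adjusted p = 0.0518) or day 1 mouse 1 (0.0541). This probe set passed the filter only through day 0, where it is high. Its p-values carry that selection and are no independent support for a fall. Another Slc2a4 probe set was called absent on all 9 arrays.

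Fabp4, the fatty acid carrier of adipocytes that macrophages and capillary endothelium also make, depended on the probe set. Its brightest probe set read 37470.5, 38417 and 38051 on day 0, 34307, 41338 and 28104 on day 1, and 30575, 30176 and 29130.2 on day 3, which is between 72.3% and 95.95% of the highest signal on the same array. That probe set changed by -0.15 ± 0.12 on day 1 (adjusted p = 0.332) and -0.34 ± 0.12 on day 3 (0.0476). The day 3 call was lost without any 1 day 0 mouse, any 1 day 3 mouse or day 1 mouse 1 (adjusted p between 0.052 and 0.118). A dimmer probe set read 1317, 2282 and 2171 on day 0, 969, 882 and 926 on day 1, and 1054, 776 and 731 on day 3. It was lower by -1.01 ± 0.20 (adjusted p = 0.00513) and -1.15 ± 0.20 (0.00224), and another by -0.86 ± 0.18 (0.00545) and -1.37 ± 0.18 (0.000247). The remaining probe set changed by -0.17 ± 0.18 (0.493) and -0.42 ± 0.18 (0.112).

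**Figure D3:**
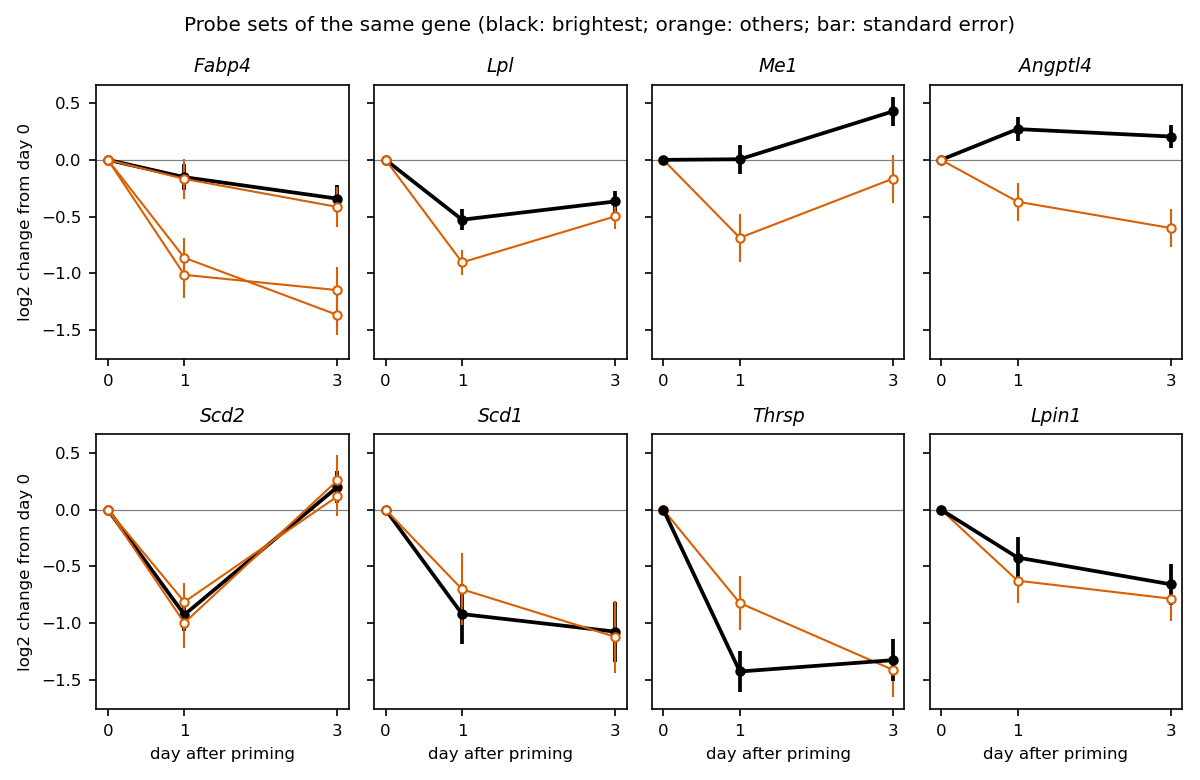
Log2 change from day 0 (vertical axis, bar: limma standard error) against day after priming for each tested probe set of 8 members, with the brightest in black and the others in orange. The probe sets of Scd2 run together and those of Fabp4, Me1 and Angptl4 diverge.

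The coat proteins of lipid droplets moved in opposite directions. Plin2, the perilipin found on droplets of most cell types, had signals of 7984, 8074 and 8480.4 on day 0, 16841, 15319 and 14649.9 on day 1, and 17658, 16789 and 16104 on day 3. All 6 primed mice were well above the day 0 mice, and the days after priming overlapped. Plin2 rose by 0.93 ± 0.09 on day 1 (adjusted p = 2.38e-05), a 1.91-fold level, and by 1.04 ± 0.09 on day 3 (1.02e-05), a 2.06-fold level. Plin4, a perilipin of nascent droplets in adipocytes, read 506, 370.2 and 398 on day 0, 196, 256 and 239.8 on day 1, and 207, 187 and 181 on day 3. It fell on both days, by 0.88 ± 0.17 (adjusted p = 0.00348) and 1.14 ± 0.17 (0.000593) on the log2 scale.

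Cidec, which fuses droplets into the single large droplet of white adipocytes, was lower on day 3. Signals of Cidec were 223, 156 and 143 on day 0, 139, 165 and 112 on day 1, and 64.5, 50.9 and 63.8 on day 3. Day 1 overlapped day 0, whereas day 3 was below both. The change was -0.32 ± 0.24 on day 1 (adjusted p = 0.322) and -1.53 ± 0.24 on day 3 (0.000821), and the drop from day 1 to day 3 was called (-1.21 ± 0.24, adjusted p = 0.00699). Cidea, its relative of brown fat droplets, was absent on all arrays, with signals from 2.88 to 54.2, and was not tested.

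All 3 lipolysis genes were lower on day 1. Mgll, which cleaves monoacylglycerol in the last step, had signals of 4448, 4103 and 4495 on day 0, 2672, 2631 and 2201 on day 1, and 2942, 2893 and 2394 on day 3. No primed mouse reached a day 0 mouse, and the changes were -0.80 ± 0.12 (adjusted p = 0.000758) and -0.67 ± 0.12 (0.0021). Its other 2 tested probe sets were called lower on both days, by -0.53 to -0.69. Lipe, the hormone-sensitive lipase, read 471, 445 and 482 on day 0, 335, 325 and 296 on day 1, and 378, 353 and 308 on day 3. It was lower by -0.55 ± 0.13 on day 1 (adjusted p = 0.0115) and -0.43 ± 0.13 on day 3 (0.0331). The day 3 call was lost without any 1 of the 6 day 0 and day 3 mice (adjusted p between 0.05 and 0.118).

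Pnpla2, the adipose triglyceride lipase that starts lipolysis, had signals of 1147, 957 and 1203 on day 0, 668, 603 and 863 on day 1, and 915, 753 and 772 on day 3. All primed mice were again below the day 0 mice. The change was -0.64 ± 0.16 on day 1 (adjusted p = 0.0126), lost without day 0 mouse 3 (0.0554), and -0.44 ± 0.16 on day 3 (0.062), which passed without day 1 mouse 3 (0.0277). In its other probe set the day 1 change was -0.47 ± 0.36 and did not pass (adjusted p = 0.347), nor did the mean of both (-0.56, 0.0669). The differences between days 3 and 1 in these 3 genes lay between 0.12 and 0.21 and were not called.

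Among the 6 genes of triacylglycerol synthesis limma called 0 on day 1, as did a one-way analysis of variance with a 2-fold limit, and Lpin1 on day 3. At an unadjusted p under 0.05, 1 gene (Lpin1) was lower on day 1 and 2 (Lpin1 and Pck1) were lower on day 3. Lpin1 dephosphorylates phosphatidate to diacylglycerol, and its signals were 695, 507 and 600.1 on day 0, 416, 368 and 574 on day 1, and 351, 412 and 372 on day 3. It was lower on day 3 (-0.66 ± 0.18, adjusted p = 0.0206), and on day 1 mouse 3 lay within the day 0 range (-0.42 ± 0.18, 0.0991). The day 3 call was lost without day 0 mouse 1 or 3 or day 3 mouse 1 or 3 (adjusted p between 0.0558 and 0.0772). Without day 1 mouse 3 the day 1 change was -0.61 and passed (adjusted p = 0.0141), and a second probe set was lower on both days (-0.63 ± 0.19 and -0.79 ± 0.19).

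Dgat1 and Dgat2, the enzymes of the final esterification, were not called on either day. Dgat1 ranged from 1161 to 1349 on day 0 and from 1288 to 1475 after priming, and its changes of 0.19 and 0.17 had 95% intervals of -0.06 to 0.44 and -0.08 to 0.42. Its other, dimmer probe set changed by -0.59 ± 0.29 on day 1 (adjusted p = 0.146) and 0.12 ± 0.29 on day 3 (0.795), so no direction is given for Dgat1. Dgat2 read 479, 352 and 426 on day 0 and 684, 397 and 610.0 on day 1, and without day 1 mouse 2 its rise of 0.64 passed (adjusted p = 0.0247). Agpat2, the acyltransferase lost in a congenital lipodystrophy, had day 1 signals of 628, 647 and 472 against 454, 517 and 399 on day 0. Its change of 0.34 ± 0.16 (adjusted p = 0.12) passed without day 1 mouse 3 (0.0252). Gpd1, which makes glycerol phosphate, read between 27.1 and 97.8 on day 0, and Pck1, the enzyme of glyceroneogenesis, had 194, 69.7 and 70.9. Their standard errors of 0.45 and 0.48 were the largest among the members, and their day 1 changes had 95% intervals of -0.58 to 1.40 and -1.80 to 0.30. On day 3 Pck1 read 34.6, 46.0 and 66.6, all below day 0, and its change of -1.06 ± 0.48 did not pass (unadjusted p = 0.0494, adjusted p = 0.129).

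Genes of fatty acid synthesis took 3 different courses. Thrsp, a regulator of lipogenesis under thyroid hormone and carbohydrate control, was lower on both days. Signals of Thrsp were 635, 701 and 559 on day 0, 192, 276 and 240.2 on day 1, and 304, 236 and 219 on day 3. No primed mouse came near the day 0 mice, and the changes were -1.43 ± 0.18 (adjusted p = 0.000239) and -1.33 ± 0.18 (0.000344). Its other probe set gave -0.82 ± 0.24 (adjusted p = 0.027) and -1.41 ± 0.24 (0.0016). Scd1, the stearoyl-CoA desaturase of fat and liver, read 11498, 6222 and 7064 on day 0, 2911, 4251 and 6013 on day 1, and 3809.6, 3143 and 4502 on day 3. In this probe set the groups did not overlap, but day 0 mouse 1 stood high and day 1 mouse 3 close to day 0. Scd1 was lower by -0.92 ± 0.27 (adjusted p = 0.0256) and -1.08 ± 0.27 (0.0128). The day 1 call was lost without day 0 mouse 1 or 3 or day 1 mouse 1 or 2 (adjusted p between 0.0528 and 0.0954), and the day 3 call without day 3 mouse 2 (0.0575). The mean of its probe sets lost the day 1 call too (adjusted p = 0.0578). Its other probe set read 1273, 797 and 771 on day 0 and 401, 476 and 949.9 on day 1, so that day 1 mouse 3 overlapped day 0. There the changes were -0.70 ± 0.32 (adjusted p = 0.121) and -1.12 ± 0.32 (0.0265).

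Scd2, the desaturase of developing and non-hepatic tissues, and Fasn, the fatty acid synthase, were called lower on day 1 and not on day 3, and of the pair only Scd2 was called between days 3 and 1. Signals of Scd2 were 3095, 3464 and 4565 on day 0, 1843, 1778 and 2174 on day 1, and 4137, 4344 and 4129 on day 3. Day 1 lay below both other days, which overlapped. Scd2 fell on day 1 by 0.93 ± 0.14 on the log2 scale (adjusted p = 0.00091), and its day 3 level differed from day 0 by 0.20 ± 0.14 (0.331; 95% interval -0.11 to 0.51). The rise from day 1 to day 3 was 1.13 ± 0.14 (adjusted p = 0.000543), and the other 2 Scd2 probe sets rose by 0.93 and 1.26 between these days. Fasn read 1013, 834 and 1374 on day 0, 505, 499 and 829 on day 1, and 849.8, 923 and 925 on day 3. It was lower on day 1 (-0.82 ± 0.22, adjusted p = 0.0167), with -0.23 on day 3, and this call was lost without day 0 mouse 3 (0.0722) or day 1 mouse 1 (0.064) or 2 (0.0622). From day 1 to day 3 Fasn differed by 0.60 ± 0.22 (adjusted p = 0.0858), and without day 1 mouse 3 by 0.84 (0.00956).

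Me1, the malic enzyme that supplies NADPH, and Elovl6, which elongates palmitate, had day 1 changes near 0 in their brightest probe sets (0.01 ± 0.12 and 0.03 ± 0.15). Me1 read 529.8, 554 and 522 on day 0, 581, 543 and 492 on day 1, and 669.8, 794 and 702 on day 3. It was higher on day 3 than on day 0 (0.43 ± 0.12, adjusted p = 0.0259) and than on day 1 (0.42 ± 0.12, 0.0426), but its other probe set changed by -0.69 ± 0.21 on day 1 (0.0352) and -0.17 ± 0.21 on day 3 (0.61). The call against day 0 was lost without day 0 mouse 1 or 3 or day 3 mouse 2 or 3 (adjusted p between 0.0565 and 0.112), and the call against day 1 without any 1 array (0.0501 to 0.166). Elovl6 read 351, 322 and 368 on day 0 and 538, 471 and 384 on day 3, a change of 0.41 ± 0.15 (adjusted p = 0.0616) that passed without day 3 mouse 3 (0.0301). Acly, which makes acetyl-CoA from citrate, and Acaca, which carboxylates it, were not called, with changes between -0.14 and 0.17 and 95% intervals from -0.41 to 0.54.

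**Figure D4:**
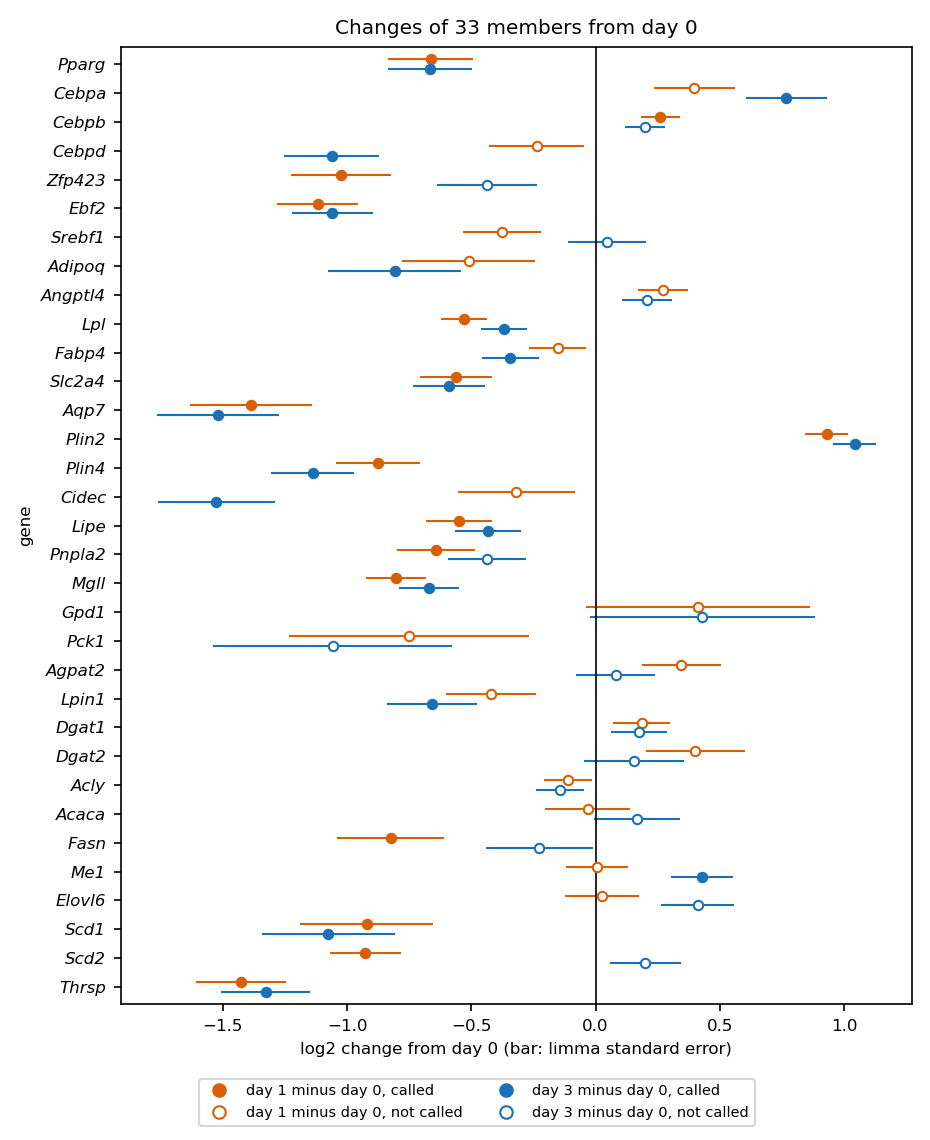
Log2 change from day 0 of the 33 tested members (brightest probe set of each) on day 1 (orange) and day 3 (blue), with limma's standard error as a bar and filled dots for an adjusted p under 0.05. Thrsp and Aqp7 lie furthest left on day 1 and Cidec and Aqp7 on day 3, and Plin2 furthest right on both days.

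Other genes of lipid storage, taken from lists beside the members, moved in different directions. Beside their counts stand the shares of all genes, 10.7% higher and 17.9% lower on day 1 and 13.6% and 12.5% on day 3. On day 1, 3 of 13 tested genes of lipid droplets and lipolysis outside the members were higher and 1 was lower, and on day 3 these numbers were 3 and 2. G0s2, an inhibitor of the lipase encoded by Pnpla2, had signals of 282, 521 and 323 on day 0, 7463, 4088 and 3076 on day 1, and 902, 1128 and 593 on day 3. It rose by 3.65 on day 1 (adjusted p = 2.05e-05), and the day 3 rise of 1.22 (0.0192) was lost without day 0 mouse 1 or 3 or day 3 mouse 1 or 2 (0.0637 to 0.0831). From day 1 to day 3 it fell by 2.43 on the log2 scale (adjusted p = 0.000871). Hilpda, a hypoxia-induced droplet protein that also inhibits this lipase, read 1776, 2748 and 2412 on day 0, and the primed mice lay between 6365 and 10125. Its rises were 1.79 (adjusted p = 4.08e-05) and 1.56 (9.99e-05).

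The other calls of this list were Abhd5, the activator of the same lipase, on day 1 (0.50, adjusted p = 0.0252), and Lipa, the lysosomal acid lipase, on day 3 (1.10, 8.26e-05). Ces1d, a carboxylesterase of adipocytes and liver, was lower on day 3 (-1.98, adjusted p = 0.000166). Cavin2, a coat protein of caveolae, was lower on day 1 (-0.67, adjusted p = 0.0186, with 0.0508 without day 0 mouse 3 and 0.0549 without day 1 mouse 1) and on day 3 (-0.81, 0.0072). Abhd5 was chosen after its value was seen, and its call was lost without day 0 mouse 1 or 3 or day 1 mouse 1 (0.0638 to 0.091) and with the mean of its probe sets (0.25, 0.194).

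In glycerolipid synthesis outside the members, 4 of 11 tested genes were higher on day 1, with 5 higher and 1 lower on day 3. Gpat3, a glycerol phosphate acyltransferase, read 273, 238 and 213 on day 0, 1121, 658 and 776 on day 1, and 385, 509 and 448 on day 3. Its rises were 1.79 (adjusted p = 8.44e-05) and 0.89 (0.00693). The acyltransferase Agpat4 rose by 0.88 and 0.73 (adjusted p = 0.00379 and 0.00928), Agpat5 by 0.57 on day 1 (0.0075) and Lclat1 by 0.58 on day 3 (0.00971). Gpd1l, a relative of Gpd1, was lower on day 3 (-0.62, adjusted p = 0.00448). Lpin2, a relative of Lpin1, was higher on both days (0.48 and 0.54, adjusted p = 0.0265 and 0.0169) and the acyltransferase Gpat4 on day 3 (0.40, 0.0371), both named after their values were seen. The day 1 call of Lpin2 was lost without day 0 mouse 1 or 2 or day 1 mouse 1 or 2 (0.053 to 0.1), and its day 3 call without day 0 mouse 2 or day 3 mouse 1 or 3 (0.0582 to 0.0638). That of Gpat4 was lost without any 1 day 0 or day 3 mouse (0.0519 to 0.122).

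On day 1, 1 of 22 tested regulators of adipocyte differentiation outside the members was higher and 8 were lower, and on day 3 9 were lower. The single rise was that of Id2, an inhibitor of basic helix-loop-helix factors (0.62, adjusted p = 0.00723, named after its value was seen). Gata3, which holds progenitors back from differentiation, was lower by -1.78 and -1.73 (adjusted p = 0.00655 and 0.00699). Klf2, an inhibitor of Pparg transcription, was lower by -1.20 on day 1 (adjusted p = 0.0153, and 0.0551 without day 0 mouse 3). Its day 3 change of -1.04 (0.0287) was lost without any 1 day 0 mouse or day 3 mouse 1 or 2 (0.0551 to 0.101). Zfp521, an antagonist of Zfp423, was lower on day 1 (-0.73, adjusted p = 0.00201) and rose again by 0.66 from day 1 to day 3 (0.00624).

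Ppargc1a, the coactivator of oxidative metabolism, was detected on no day 1 or day 3 array. Its day 0 signal was 3.46-fold that of day 3 (adjusted p = 0.0143). The probe set used passed the filter only through day 0, where it is high, and the p-value carries that selection. That call was lost without day 0 mouse 1 (0.0515) or day 3 mouse 2 (0.0557). Its relative Ppargc1b was lower on day 1 (-1.73, adjusted p = 0.0174), a call lost without day 0 mouse 1 or 3 or day 1 mouse 1 (0.0521 to 0.0546). The Ppargc1b probe set was called present on only 6 arrays, and its signals were highest on day 0. It may have passed the filter only through day 0, and its p-value would then carry that selection.

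In fatty acid uptake and oxidation, 2 of 19 tested genes were higher and 3 lower on day 1, and 4 higher and 3 lower on day 3. On day 1 these are 10.5% and 15.8%, near the shares of all genes, and on day 3 they are 21.1% and 15.8%. The fatty acid transporter Slc27a1 rose on day 3 by 1.13 (adjusted p = 0.00159) and the acyl-CoA synthetase Acsl4 on day 1 by 0.86 (0.00219). Gpihbp1, which carries Lpl across the capillary endothelium, was lower by -0.62 on day 1 (adjusted p = 0.0118), and Acadm, a dehydrogenase of medium-chain fatty acids, by -0.44 (0.00705). Cpt1a, the entry enzyme of mitochondrial oxidation, was higher on day 3 (0.85, adjusted p = 0.0198, and 0.0849 without day 3 mouse 1). Pdk4, which spares glucose, was lower on day 3 (-0.64, adjusted p = 0.013, with 0.0523 without day 3 mouse 1 and 0.0595 without day 3 mouse 2). The day 3 calls of Acsl4 (0.56, 0.0187) and Gpihbp1 (-0.50, 0.0302) were lost without day 0 mouse 3 (0.0684 and 0.0709) or day 3 mouse 2 (0.0802 and 0.0734). For Acsl4 this held also without day 0 mouse 1 (0.0612), and for Gpihbp1 without day 0 mouse 2 (0.103) or day 3 mouse 1 or 3 (0.0618 and 0.0976). The remaining calls, named after their values were seen, were rises of Acadl (0.33 and 0.31), a dehydrogenase of long-chain fatty acids, and lower values of Cd36 (-0.37 and -0.47), a fatty acid receptor. Acadl was not called on day 1 without day 0 mouse 1 or 3 or day 1 mouse 1 (adjusted p from 0.0822 to 0.0937), nor on day 3 without any 1 day 0 or day 3 mouse (0.0552 to 0.176). Cd36 was not called on day 1 without any 1 array other than day 1 mouse 2 (0.0566 to 0.121), nor on day 3 without day 0 mouse 2 (0.0679) or day 3 mouse 2 (0.0771).

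In fatty acid synthesis outside the members, 3 of 14 tested genes were lower on day 1 and 2 higher on day 3. These shares of 21.4% and 14.3% are near those of all genes. Scap, the escort of SREBP, was lower on day 1 (-0.63, adjusted p = 0.012), and Fads3, a desaturase homolog, was higher on day 3 (0.81, 0.00526). The elongase Elovl5 (-0.46, adjusted p = 0.0206) and the desaturase Fads1 (-0.47, 0.0282) were lower on day 1. The call of Elovl5 was lost without day 0 mouse 3 or day 1 mouse 1 (0.0744 and 0.0644), and that of Fads1 without day 0 mouse 1 or 3 or day 1 mouse 2 (0.064 to 0.108). The elongase Elovl1 was higher on day 3 (0.43, adjusted p = 0.0165), a call lost without day 0 mouse 1 or 2 or day 3 mouse 1 or 2 (0.0503 to 0.0809).

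Of 14 insulin and adipokine signaling genes, 2 were higher and 6 lower on day 1, and 1 higher and 3 lower on day 3. Rbp4, the retinol carrier secreted by fat, rose by 1.14 (adjusted p = 0.000844) and 0.84 (0.00458), and Foxo1, a factor restrained by insulin, was lower by -0.96 and -0.87 (0.00587 and 0.00894). Nampt, an NAD enzyme also secreted by fat, rose on day 1 by 0.98 (adjusted p = 0.000647) and fell by 1.10 on the log2 scale from day 1 to day 3 (0.00066). Lepr, the leptin receptor, was lower on day 3 (-0.69, adjusted p = 0.0391), a call lost without day 0 mouse 2 or 3 or any 1 day 3 mouse (0.0518 to 0.128). The third lower gene of day 3 was Irs1, the insulin receptor substrate (-0.51, adjusted p = 0.0449, named after its value was seen). That call was lost without any 1 day 0 mouse or day 3 mouse 1 or 3 (0.0555 to 0.159).

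Markers of the cells in the SVFs also changed, in directions that differed by cell type, and their part in the results was not tested. Of 12 adipocyte markers outside the members 4 were tested, and their mean log2 level relative to day 0 lay between -0.64 and -0.33 in the day 1 mice and between -1.04 and -0.99 in the day 3 mice. Car3, an abundant enzyme of adipocytes, read 11424, 10107 and 12310.4 on day 0, 7458, 6395 and 7878 on day 1, and 4964, 6757 and 5448 on day 3. Tshr, Ces1f and Aspg were called absent on all arrays, and Hcar1, Acvr1c, Nnat and Adig did not pass the filter. The 12 tested adipose progenitor markers had a mean of -0.40 to -0.22 on day 1 and -0.53 to -0.38 on day 3. By limma 0 were called higher and 2 (16.7%) lower on day 1, against 10.7% and 17.9% of all genes. The share of lower markers on day 1 is thus near that of all genes. On day 3, 1 (8.33%) was higher and 7 (58.3%) lower, against 13.6% and 12.5% of all genes. At an unadjusted p under 0.05, 0 were higher on day 1 as well. Pdgfra changed by -0.02 ± 0.14 and -0.18 ± 0.14. Col1a1, a collagen chain of fibroblasts, was the one higher on day 3. It read 6181, 3194 and 4423 on day 0, 2954, 2032 and 3133 on day 1, and 9517, 11230 and 8880 on day 3, with changes of -0.74 ± 0.22 (adjusted p = 0.0299) and 1.15 ± 0.22 (0.00344). Its day 1 call was lost without day 0 mouse 1 or 3 or day 1 mouse 2 (0.0807 to 0.109). Endothelial markers, 11 of 11 tested, were at -0.65 to -0.48 and -0.39 to -0.21.

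Markers of macrophages, 10 of 10 tested, were at 0.58 to 0.81 on day 1 and 0.50 to 0.75 on day 3. On each day 5 (50%) were called higher and 1 (10%) lower. Of all genes, 10.7% were higher and 17.9% lower on day 1, and 13.6% and 12.5% on day 3. The median change of the 10 was 0.36 and 0.37, below these means. Fcgr1 read 395 to 467 on day 0 and 5769 to 7071 on day 1, whereas Lyve1 read 3105 to 3686 on day 0 and 1730 to 2450 on day 3. Markers of lipid-laden macrophages, 6 of 8 tested, were at 0.29 to 0.76 and 0.80 to 0.98. Of the 6, 2 (33.3%) were called higher on day 1 and 3 (50%) on day 3. On day 3 these were Trem2 (2.73, adjusted p = 0.000369), Lgals3 (1.30, 0.000489) and Ctsd (1.17, 2.81e-05), and the latter pair was also higher on day 1 (1.52 and 0.95). The others were not called, with Fabp5, a carrier related to Fabp4, at 0.08 ± 0.14 and 0.34 ± 0.14, Gpnmb at -0.02 and -0.09, and Cd9 at 0.05 and -0.27. Fabp5 passed on both days without day 1 mouse 3 (0.0401 and 0.0104), and Trem2 on day 1 without day 0 mouse 2 (0.93, 0.0429). Trem2 was called present on at most 5 arrays, and its signals were highest on day 3. It may have passed the filter on detection only through day 3, and its p-values would then carry that selection. Neutrophil markers, 7 of 10 tested, were at 3.74 to 4.13 and 2.31 to 2.81, and lymphocyte markers, 7 of 8 tested, at -1.62 to -0.40 and -1.52 to -0.87.

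Of the markers of brown or beige adipocytes, Ucp1 and Kcnk3 were absent on all arrays, and 5 were tested. By limma 2 (40%) were called higher and 0 lower on day 1, against 10.7% and 17.9% of all genes. On day 3, 1 (20%) was higher and 2 (40%) lower, against 13.6% and 12.5% of all genes. At an unadjusted p under 0.05, 2 were lower on day 1. Cox7a1, a cytochrome oxidase subunit of muscle and brown fat, read 92.2, 158 and 113 on day 0, 338, 319 and 166 on day 1, and 205, 221 and 169 on day 3. It rose on day 1 by 1.15 ± 0.28 (adjusted p = 0.0127, and 0.054 without day 1 mouse 1), and its day 3 change of 0.74 ± 0.28 (0.076) passed without day 0 mouse 2 (0.0478) or day 1 mouse 3 (0.0217). Dio2, the deiodinase that activates thyroid hormone, was detected on no day 0 array. Its signal was 2.90-fold that of day 0 on day 1 (adjusted p = 0.0185) and 2.49-fold on day 3 (0.0357). It passed the filter only through days on which it is high, and these p-values carry that selection. The day 1 call was lost without day 0 mouse 2 or day 1 mouse 1 (0.0509 and 0.0725), and the day 3 call without day 0 mouse 1 or 2 or any 1 day 3 mouse (0.0566 to 0.122).

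Lower on day 3 were Ppargc1a, given above, and Cox8b, another oxidase subunit of muscle and brown fat. Cox8b was detected on no day 3 array, and its day 0 signal was 4.09-fold that of day 3 (adjusted p = 0.00347). It passed the filter only through the earlier days, where it is high, and the p-value carries that selection. Skeletal muscle markers, 5 of 9 tested, had a mean between -0.77 and 0.54 on day 0 and between 0.03 and 1.21 on day 1, and their part in these values was not tested.

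**Figure D5:**
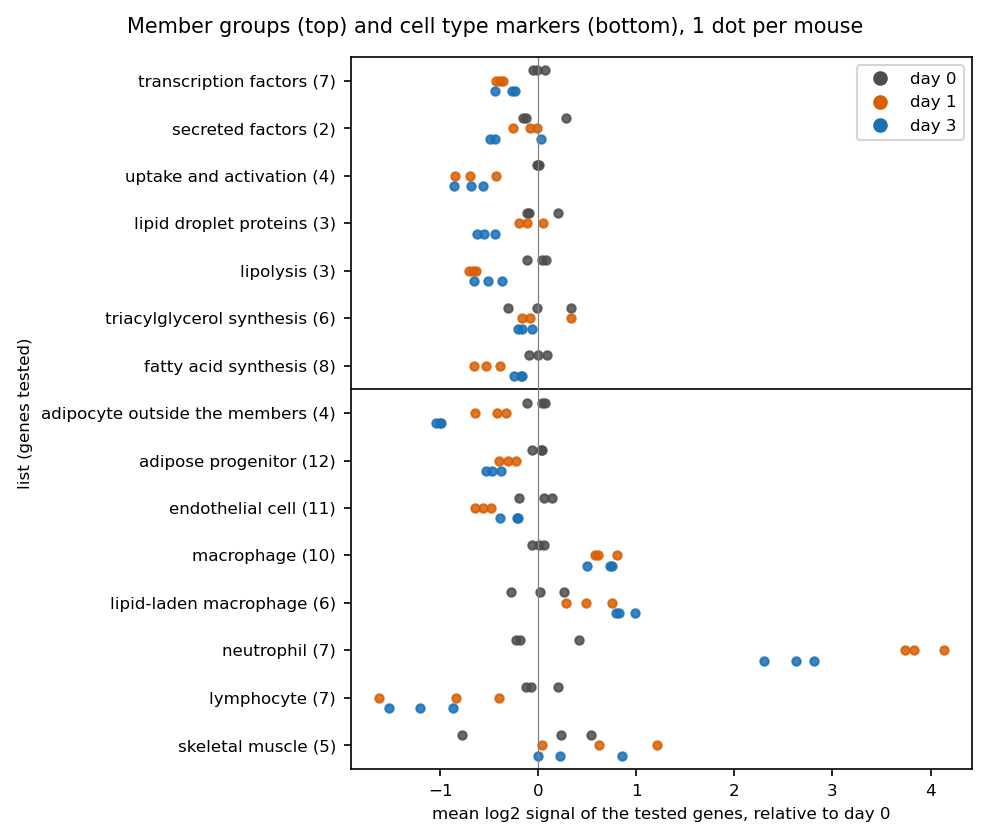
Mean log2 signal of the tested genes of each member group (top) and of each marker list (bottom) in each mouse, relative to the day 0 mean, with the number of genes in brackets. Lipolysis genes lay between -0.70 and -0.63 on day 1 and between -0.65 and -0.37 on day 3, and neutrophil markers between 3.74 and 4.13 on day 1.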

How the data were processed

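Biotin-labelled RNA of SVFs was hybridised to an array per mouse. As deposited by the authors, each file holds a signal intensity summarised with MAS5 (per the submitters' processing notes), scaled so that every array had the same trimmed mean with 2% of probe sets left out at each end, with a detection call and a detection p-value per probe set. The detection p-values the authors deposited were not used beyond these calls. The deposited table of all samples equals these files within 0.0005%. The number of arrays, 3 per day, limits the precision.

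Of 45101 probe sets, 34945 had 1 symbol, 932 several and 9160 none, and 64 were controls. Probe sets entered when all 3 arrays of some day called them present, and the brightest of a gene stood for it. Log2 signals of 9 arrays were fitted with limma 3.58.1 (lmFit and eBayes with a variance trend, day as the factor, 6 residual degrees of freedom) in R 4.3.3 with data.table (version 1.17.8), with two-sided p-values adjusted by Benjamini-Hochberg over 11796 genes. The fit was tested on simulated data. Other probe sets of members took their adjusted p from a separate limma fit over 21283 probe sets. In that fit the brightest Fabp4 probe set was not called on day 3 (adjusted p = 0.0551). Nor was the brightest of Me1 between days 3 and 1 (0.054). P-values measure the spread between 3 mice a day.

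Members and lists were chosen with earlier results of these data known. All members were named. Of each pathway list the rule picked up to 3 called genes with the largest change per comparison. It also picked Rxra, Zfp467, Gpam, Cpt2 and Cbl, which are not described here. Marker genes were named after their values were seen. Alternatives covered scaling, filter, probe set choice, variance model, arrays used, a replicate block, a 2-fold limit and a one-way analysis of variance. The last took an unadjusted p under 0.05 over the days, the same for every comparison, with the 2-fold limit. The study's methods name a repeated-measurements analysis of variance, which was not rerun. The arrays name no genome build. Promoters are RefSeq sequences on GRCm38.p6, with entries for 25 of 37 members.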

Additional observations from a re-analysis of the deposited data

Results flagged for a closer look

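For 4 members the change from day 0 differed between day 3 and day 1 by the limma test of that difference. Scd2 was 1.13 higher on day 3 than on day 1 (log2 scale), with the day 1 mice below every day 0 mouse and the day 3 mice within the day 0 range or next to it. Me1 was 0.42 higher on day 3 than on day 1, in its brightest probe set. That call of Me1 was lost without any 1 array, and also with quantile normalization or median centring. Cebpd was at -0.83 and Cidec at -1.21 on day 3 against day 1, and every day 3 mouse was below every day 1 mouse for both. Why these 4 genes differed between days 1 and 3 was not tested.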

How the results depend on the processing

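With a 2-fold limit on the limma calls, 0 members were called higher on day 1 and 4 lower. This limit gave 1 and 7 on day 3 and 1 and 1 on day 3 against day 1. A one-way analysis of variance over the days, unadjusted and with the same limit, gave equal counts. Leaving out 1 array gave 1 to 5 higher and 10 to 16 lower on day 1, 2 to 3 higher and 10 to 16 lower on day 3, and 1 to 4 higher and 1 to 3 lower on day 3 against day 1. Day 1 mouse 3 decided the upper ends: without it, 5 were higher on day 1, and 4 higher and 3 lower on day 3 against day 1. Without day 1 mouse 2, 3 were higher on day 1, and without any 1 day 0 mouse or day 1 mouse 1, 1 was. On day 3 against day 1, 1 was lower without day 1 mouse 2 or day 3 mouse 3, and 1 was higher without any 1 array other than day 1 mouse 3 or day 3 mouse 3. On day 3, 2 were higher without day 0 mouse 1 or 3 or day 3 mouse 2. On day 1, 4 were higher with median centring and 1 with no filter, no variance trend or only the 6 arrays compared. On day 3, 5 were higher with quantile normalization. On day 3 against day 1, 1 was higher with median centring, no filter or only the 6 arrays compared, and 1 was lower among genes present on all 9 arrays. The causes were not tested. The median of all genes on day 1 moved from -0.13 to -0.04 with quantile normalization and -0.01 with median centring, and on day 3 against day 1 from 0.09 to 0.01 and -0.04. The share of lower genes among all called moved with it, from 62.5% to 51.8% and 42.8% on day 1 and from 32% to 39.3% and 56.6% on day 3 against day 1. Lower calls were lost under quantile normalization for Lipe (adjusted p = 0.0799 on day 1, 0.066 on day 3), Slc2a4 on day 1 (0.168), Adipoq (0.0558) and Fabp4 (0.174) on day 3.

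The mouse numbers were not found to pair the mice, since same-numbered mice of different days correlated by -0.147 to 0.331 in their deviations from the day means. With the replicate block, day 1 had 3 higher and 15 lower members, day 3 had 3 and 16, and day 3 against day 1 had 3 and 2. Among the members, signs turned only where another probe set stood for the gene, if either value was called. Without probe sets that can share transcripts, Angptl4 was at -0.60 on day 3. There its other probe set stood for the gene, the same that gave -0.60 when fitted by itself. These are therefore not separate checks, and the fit of single probe sets was chosen after seeing the data. The other probe set of Me1 gave -0.69 on day 1 and -0.17 on day 3.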
